A study of Saccharomyces cerevisiae with 42 samples.

Results

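The array carried 290 probes, of 8635 in all, whose identifiers mark an intergenic region. They were taken by identifier alone: 242 begin with IGR and give a chromosome stretch, and 48 begin with IGX and give a single position. Open reading frame names, introns, small RNAs, tRNAs, tags and controls were left out. In 101 cases, called tiles here, the identifier gives a forward-strand stretch that is mostly 1000 bases long (76 of 101, shortest 170). In 141 cases, called short segments, it gives a stretch of 135 to 291 bases on either strand, 75 of them on the complement strand. The identifiers hold no genome build and no sequence, so the probes are described by the coordinates in their names.

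Yeast genes lie close together, so a probe between them can meet the 3′ untranslated end of a gene's transcript, the leader of the next gene, a small nuclear or nucleolar RNA, or a noncoding transcript of its own. Hog1, a MAP kinase, is switched on when osmolarity rises and gives its name to the high-osmolarity glycerol pathway. It drives the glycerol response and much of the transcriptional programme, while growth genes, above all those that make ribosomes, are shut down for a time in many stresses.

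The study asked, by its title, whether Hog1 has to be in the nucleus for cells to withstand hyperosmotic stress. It compared 3 strains of Saccharomyces cerevisiae: HOG1-GFP, in which Hog1 bears a fluorescent tag; hog1del, which lacks the gene; and HOG1-CCAAX, whose name gives a motif of the kind by which prenylated proteins are held at membranes. Each strain was sampled before (0 min) and after 60 min in 1 M sorbitol at 25 °C, and amplified RNA labelled with Cy3 was hybridised against a Cy5 reference pool. The sources used here do not give how the strains were built, whether each is a single clone or what the pool holds, and no sample spent 60 min without sorbitol, so the passage of time cannot be told apart from the shock. The intergenic probes have no value in biological replicate 1. All results therefore rest on replicates 2 and 3, with up to 2 arrays behind each value of the 12 level columns.

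Levels below are log2 ratios of sample over reference, a response is the change of that level from 0 to 60 min in a given replicate, and ± is the SD over 2 biological replicates. Technical arrays of a column correlated at 0.973 to 0.988 across the intergenic probes. The HOG1 probe bore out the hog1del label at 0 min, but did not tell HOG1-GFP from HOG1-CCAAX. Its level was −0.06 and −0.10 in HOG1-GFP, −3.20 and −3.47 in hog1del, and −0.34 and −0.15 in HOG1-CCAAX.

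The coordinates did not bear out the word intergenic for all of these probes. Coordinates were set by number against the RefSeq gene models of assembly R64. A short segment was placed by its whole stretch. For a tile an assumed 70 bases were used, beginning at its start plus the number that ends its identifier. The coordinates printed for tiles give the whole stretch. By these unlike windows 81 of the 101 tiles (80.2%) and 46 of the 48 single positions (95.8%) overlapped a gene. For short segments it was 23 of the 141 (16.3%). When all coordinates were moved by 1000 bases downwards, 117 short segments overlapped a gene, so the short segments are placed in the gaps of the annotation far more closely than a shifted set. The tiles hardly moved under the same shift (84 of 101). All 46 overlapping single positions lay on the coding strand of their gene. The 54 genes that hold a tile on either strand had a median length of 4986 bases, against 1200 for all 6002 protein-coding genes. Placements that changed when a probe was moved by 50 bases are named as near an edge.

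**Figure D1:**
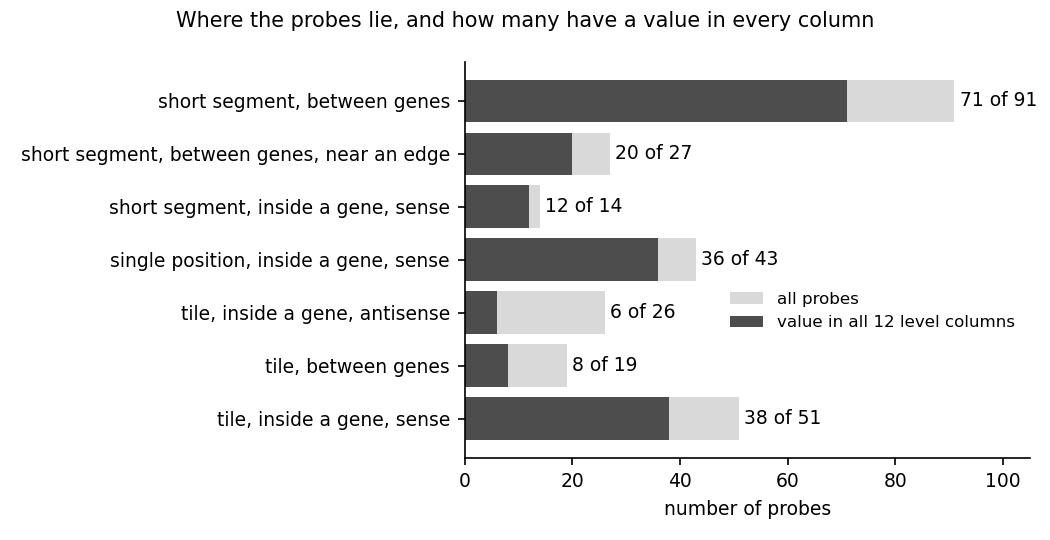
Number of probes (horizontal axis) by the kind of identifier and by place relative to the RefSeq genes, for kinds with at least 14 probes. Grey bars give all probes and dark bars those with a value in all 12 level columns. Sense tiles and single positions mostly have complete values (38 of 51 and 36 of 43), whereas antisense tiles mostly do not (6 of 26).

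A value in every column was present for 201 of the 290 probes, and 25 had no value at all. Probes near an edge are left out of the shares by place. The share was 38 of 51 for tiles on the coding strand of a gene. It was 36 of 43 for single positions on that strand and 71 of 91 for short segments between genes. It was 6 of 26 for tiles antisense to a gene, and 13 of those 26 had no value in any column. Per column, 74.1% to 85.5% of the probes had a value at 0 min and 83.5% to 90.0% at 60 min. Probes of open reading frames (ORFs) lay at 93.6% to 97.2% and 96.1% to 97.8%.

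Several probes were seen only after the shock. In HOG1-GFP 19 of the 290 had both values at 60 min and none at 0 min (6.55%), in hog1del 13 (4.48%) and in HOG1-CCAAX 20 (6.90%). Among the 6278 ORF probes these shares were 0.972%, 0.685% and 0.781%. None of the 290 showed the reverse in any strain, and among the ORF probes only 0, 1 and 2 did. In all 3 strains 9 intergenic probes were seen at 60 min alone. They include the segment at chromosome XI 164672 to 164819, which lies past the 3′ end of NNR2 (an NADHX dehydratase gene) on its strand and upstream of GPM1 (phosphoglycerate mutase). Its level at 60 min was 0.48 and 0.69 in HOG1-GFP, −0.67 and −0.57 in hog1del, and 0.49 and 0.28 in HOG1-CCAAX. The hog1del values lay below those of the other strains without overlap. The NNR2 ORF probe rose by 2.77, 1.63 and 2.89 (adjusted p = 8.5e-06, 3.4e-05 and 4.2e-06, limma). This order of strains did not hold for all 9 probes. At chromosome VII 319847 to 319985, near an edge, hog1del lay highest at 60 min, with 0.77 and 0.65. HOG1-GFP was at −0.25 and −0.19 there, and HOG1-CCAAX at −0.04 and −0.04. Why values are missing is not given in the sources used here, and these probes could not enter the test.

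The 201 complete probes responded to sorbitol about as often as the rest of the array. A limma fit over all 7132 probes with complete values, with Benjamini-Hochberg adjustment and a threshold of 0.05, called 129 of the 201 in HOG1-GFP, where 65.6% of all probes were called. Of these 66 rose (background 32.7%) and 63 fell (32.9%), and 47 changed at least 2-fold (background 24.2%). In hog1del 142 were called (background 70.1%), of which 65 rose (33.7%) and 77 fell (36.5%), and 71 changed at least 2-fold (background 30.2%). In HOG1-CCAAX 138 were called (background 70.2%), of which 72 rose (35.3%) and 66 fell (34.9%), and 70 changed at least 2-fold (background 30.6%). In all 3 strains 53 of the 201 rose (26.4%, background 25.1%) and 52 fell (25.9%, background 25.5%). The median response of the 201 was −0.03 in HOG1-GFP, 0.02 in hog1del and −0.01 in HOG1-CCAAX, against −0.02, −0.01 and 0.00 over all 7132. By kind, 80 of 108 short segments, 28 of 54 tiles and 21 of 39 single positions were called in HOG1-GFP. In hog1del it was 82, 37 and 23, and in HOG1-CCAAX 80, 35 and 23. The kinds differed in direction. The median response of tiles was −0.28 in HOG1-GFP, −0.44 in hog1del and −0.46 in HOG1-CCAAX. For short segments it was 0.16, 0.12 and 0.21, and for single positions −0.08, −0.12 and −0.06. Of the tiles 8 rose and 20 fell in HOG1-GFP, 11 and 26 in hog1del, and 12 and 23 in HOG1-CCAAX. Of the short segments 48 rose and 32 fell, then 43 and 39, and 49 and 31. The median SD between replicates of a tile was 0.16 in HOG1-GFP, 0.14 in hog1del and 0.31 in HOG1-CCAAX. It was 0.12, 0.18 and 0.27 for single positions, 0.11, 0.12 and 0.15 for short segments, and 0.10, 0.12 and 0.14 for ORF probes.

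Probes inside a gene on its coding strand responded much like the gene's own ORF probe. Across 38 tiles in 29 genes the response correlated with that of the gene's own ORF probe at r = 0.88 in HOG1-GFP, 0.87 in hog1del and 0.86 in HOG1-CCAAX. Across 33 single positions in 32 genes r was 0.95, 0.92 and 0.96. These correlations describe probe pairs that share their arrays, and often a transcript, and they carry no test. The median absolute difference between a tile and its ORF probe was 0.20 in HOG1-GFP, and for single positions it was 0.21.

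**Figure D2:**
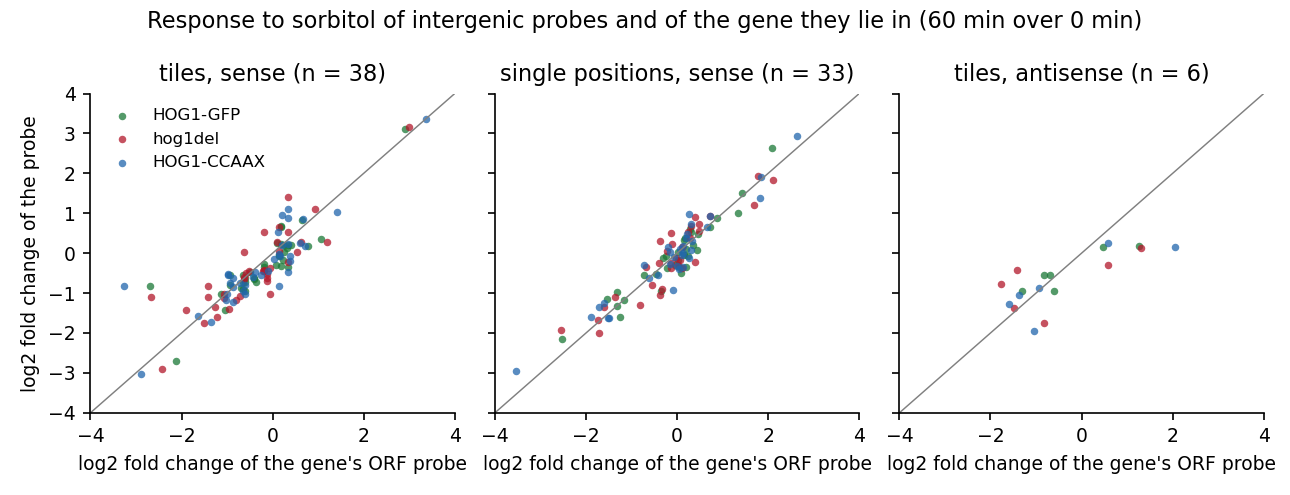
Response (log2, 60 min over 0 min, mean of 2 replicates) of a probe on the vertical axis against that of the ORF probe of the gene it lies in, for each strain by colour. The line marks equality. Sense tiles (n = 38) and single positions (n = 33) lie along it, and the 6 antisense tiles with complete values spread around it.

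The strongest risers of this kind rose in every strain. A tile inside REX3, which encodes an RNA exonuclease, at chromosome XII 364506 to 364831 had levels of −1.98 and −1.77 at 0 min and 1.20 and 1.25 at 60 min in HOG1-GFP. All values at 60 min lay above all values at 0 min. It rose 8.57-fold in HOG1-GFP (3.10 ± 0.12), 8.99-fold in hog1del (3.17 ± 0.18) and 10.3-fold in HOG1-CCAAX (3.36 ± 0.40), the largest response among the 201 in each strain (adjusted p = 1.1e-05, 1e-05 and 5.2e-06, limma). The REX3 ORF probe rose by 2.91, 3.00 and 3.37. A single position inside YKL091C, a relative of the phosphatidylinositol transfer protein Sec14, rose by 2.63 ± 0.08, 1.84 ± 0.06 and 2.94 ± 0.11. Its response in hog1del was lower than in HOG1-GFP by a difference of 0.78 (adjusted p = 0.016) and lower than in HOG1-CCAAX by 1.10 (adjusted p = 0.019, limma). The YKL091C ORF probe passed in neither comparison. For it HOG1-GFP minus hog1del was −0.03 (adjusted p = 0.89) and HOG1-CCAAX minus hog1del 0.53 (adjusted p = 0.086, limma). Another single position, inside PET20, a mitochondrial protein gene, rose by 1.50 ± 0.08, 1.94 ± 0.01 and 1.90 ± 0.50.

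A gene that makes ribosomes gave the largest fall of the 201 in each strain. The tile inside UTP20, a subunit of the complex that processes the small ribosomal RNA, at chromosome II 234361 to 234579 had levels of 0.94 and 0.97 at 0 min and −1.80 and −1.69 at 60 min in HOG1-GFP. It fell by 2.71 on the log2 scale in HOG1-GFP, by 2.90 in hog1del and by 3.04 in HOG1-CCAAX (adjusted p = 7.2e-06, 7.7e-06 and 3.5e-06, limma). The 2 replicates of a strain differed little, with SDs of 0.06, 0.02 and 0.07. A single position inside NOC2, which is needed for assembly and export of the large ribosomal subunit, fell by 2.16, 1.93 and 2.96 (SDs 0.12, 0.20 and 0.17). In HOG1-GFP single positions inside HIS4, a histidine biosynthesis gene, and IMG1, a mitochondrial ribosomal protein gene, fell by 2.15 and 1.61. A tile inside TRM3, a tRNA methyltransferase gene, fell by 1.43 there.

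Lists of neighbouring genes gave few members. Of 6 probes in or next to a gene of a ribosome biogenesis list (UTP20, UTP22, ENP2, BMS1 and ERB1), 3 had complete values, and all 3 fell in each strain, where 25.5% of all probes fell in all strains. Their median response was −1.76 in HOG1-GFP, −1.89 in hog1del and −2.00 in HOG1-CCAAX. For cytosolic ribosomal protein genes 4 of 5 probes were tested. In HOG1-GFP 2 of them fell, past the 3′ end of RPL12A and inside RPS7B, and 1 rose, upstream of RPS6B (background 32.9% lower and 32.7% higher). The median of the 4 was −0.48 in HOG1-GFP, −0.21 in hog1del and −0.65 in HOG1-CCAAX. Of 2 probes beside a mating gene, the segment past the 3′ end of KSS1, the MAP kinase of filamentous growth and mating, was tested. It rose by 0.37 ± 0.13, 0.98 ± 0.20 and 0.49 ± 0.01. No probe was next to any gene of the osmostress list, STL1, GPD1 and CTT1 included.

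Where several tiles lay in the coding strand of a gene, they differed in how often they were measured. There were 13 such genes with 31 tiles. The tile nearest the 3′ end was complete in 12 of the 13 genes and the tile nearest the 5′ end in 8. In RPA190, the largest subunit of RNA polymerase I, the tile at chromosome XV 960694 to 961694 fell by 0.82 in HOG1-GFP, 1.09 in hog1del and 0.83 in HOG1-CCAAX, while the ORF probe fell by 2.70, 2.67 and 3.27. In UTP20 the upstream tile at 230361 to 231361 had 11 of 12 values and was not tested. It responded by −1.34 and −1.80 in the replicates of HOG1-GFP, short of −2.75 and −2.66 for the downstream tile. Probes of 1 gene thus did not all give the same size of response.

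PTP2, a tyrosine phosphatase that acts on Hog1, held 3 complete tiles. The most downstream of them, at chromosome XV 735507 to 735677, rose by 0.68 ± 0.24 in HOG1-GFP, 0.53 ± 0.04 in hog1del and 0.88 ± 0.14 in HOG1-CCAAX (adjusted p = 0.002, 0.0058 and 0.00047, limma). The middle tile passed in no strain, at 0.22 ± 0.04, −0.21 ± 0.16 and 0.24 ± 0.53. The most upstream tile spread widely between replicates, with responses of 0.39 and 0.90 for HOG1-GFP, 2.01 and 0.80 for hog1del, and 1.99 and 0.24 for HOG1-CCAAX. The ORF probe, at 0.17, 0.34 and 0.33, passed in hog1del and HOG1-CCAAX.

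Besides 2 near an edge, 26 tiles lay antisense to a gene. Of these 26, 13 had no value, 7 had values in some columns and 6 were complete. The 6 complete ones moved in the direction of the ORF probe of the gene in 6 cases in HOG1-GFP, 5 in hog1del and 6 in HOG1-CCAAX. With the complete tile near an edge kept, it was 6, 5 and 6 of 7. The tile opposite CSF1 at chromosome XII 307355 to 308355 fell by 0.55, 1.38 and 0.86. The CSF1 ORF probe fell by 0.69, 1.49 and 0.93. With no probe sequence to tell the strand bound, whether these tiles met an antisense transcript was not tested.

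Of 6 segments on the coding strand of small nuclear or nucleolar RNAs, 5 fell in every strain (25.5% of all probes did). The segment in SNR51 lay near an edge. The segment in SNR86, which guides pseudouridylation of ribosomal RNA, at chromosome XIII 762445 to 762586 fell by 1.95 in HOG1-GFP, 2.27 in hog1del and 1.94 in HOG1-CCAAX (adjusted p = 3.6e-05, 1.8e-05 and 2.4e-05, limma). The segment in SNR30, an RNA needed to process the small ribosomal RNA, fell by 1.17, 1.58 and 1.56. That in SNR39B fell by 1.12, 1.77 and 1.50.

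The small RNAs' own rows on the array moved likewise for SNR30 (−1.25, −1.71 and −1.61) and SNR39B (−1.05, −1.61 and −1.19). The segment in LSR1, the U2 spliceosomal RNA, fell by 0.99, 0.85 and 1.16, beside −1.27, −0.82 and −1.49 for its own row. The segment in SNR51 fell by 0.66, 1.75 and 0.72, whereas its own row, at −0.79, −0.52 and −0.61, did not pass. The segment in the U5 RNA SNR7-L passed in no strain, with −0.90 and 0.21 in the replicates of hog1del and −0.78 and 0.95 in those of HOG1-CCAAX. On the opposite strand of SNR36 the picture was reversed. The segment at chromosome XV 680790 to 680937, past the 3′ end of SER1, rose by 1.96 ± 0.07, 2.66 ± 0.01 and 2.20 ± 0.18, while the SNR36 row fell by 0.84, 1.28 and 1.25. SER1, a serine biosynthesis gene, responded by 0.09, 0.12 and 0.08 and did not pass.

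Between genes, the response of a short segment lay closest to that of the gene that ends just before it on the same strand. Across 42 such pairs (41 genes) r was 0.57 in HOG1-GFP, 0.51 in hog1del and 0.52 in HOG1-CCAAX. Where the gene begins just after the segment on the same strand (45 pairs), r was 0.07, 0.11 and 0.08. For genes of the opposite strand it was 0.10, −0.02 and 0.02 with the 3′ end facing (21 pairs) and 0.11, 0.10 and 0.03 with the 5′ end facing (27 pairs). The median absolute difference from the neighbour was 0.29 in HOG1-GFP for genes ending before the segment and 0.86 for genes beginning after it. These correlations are across probes that share arrays and, in part, neighbours, and are given with no test.

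**Figure D3:**
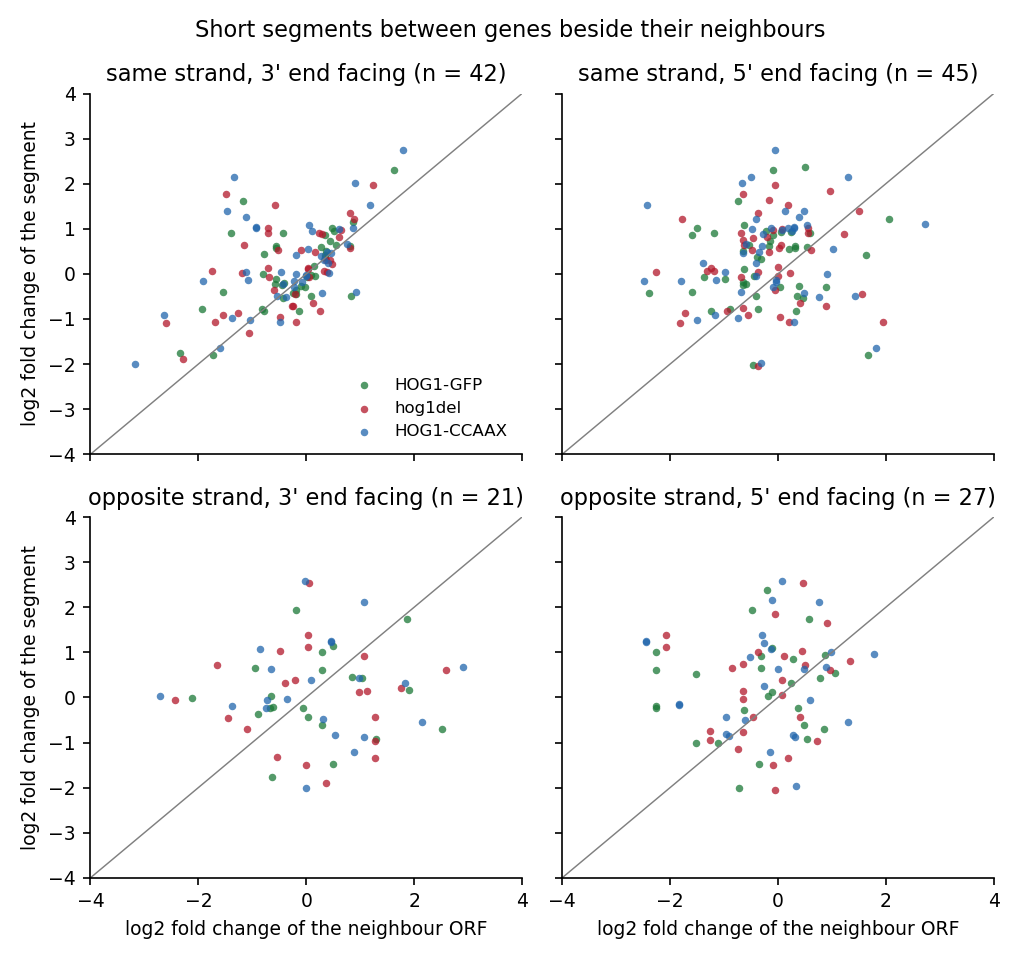
Response (log2, 60 min over 0 min, mean of 2 replicates) of short segments between genes on the vertical axis against that of a neighbouring ORF probe, by strand of the neighbour and by which of its ends faces the segment. Colours give the strain and the line marks equality. Points gather along the line only in the first panel, where r is 0.51 to 0.57.

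Counts of called probes gave the same order, with segments near an edge included, which the correlations above leave out. Of the short segments between genes that changed at least 2-fold in HOG1-GFP, 9 had a measured gene ending before them on their strand, and 8 of those genes were called in the same direction and 1 in the opposite. In hog1del it was 10 of 15, with 3 opposite, and in HOG1-CCAAX 12 of 19, with 5 opposite. For a gene beginning after the segment it was 5 of 12, 7 of 19 and 11 of 25 (opposite in 5, 6 and 10). The background of called probes given above, 65.6% to 70.2% in either direction, applies to the neighbours too.

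Several segments fell with the gene that ends before them. Past the 3′ end of LTV1, an assembly factor of the small subunit, the segment at chromosome XI 178284 to 178428 fell by 1.80 in HOG1-GFP, with LTV1 itself at −1.73. The gene that begins after it, MRP8, rose by 1.67. In hog1del the segment fell less, by 1.07, a difference between the strains of −0.73 (adjusted p = 0.018, limma) against −0.04 for LTV1. Past ENP2, also a small-subunit factor, the segment at chromosome VII 783951 to 784086 fell by 1.76 in HOG1-GFP, 1.89 in hog1del and 2.00 in HOG1-CCAAX, and ENP2 by 2.33, 2.28 and 3.18.

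Past RPL12A, a large-subunit protein gene, the segment at chromosome V 52350 to 52515 fell by 1.59, 1.92 and 2.02 and the gene by 1.92, 2.58 and 2.31. This segment lies near an edge. A rising pair was YNL092W and the segment at chromosome XIV 452135 to 452276. The segment rose by 2.30 ± 0.11, 1.97 ± 0.18 and 2.74 ± 0.10, and the gene by 1.63, 1.23 and 1.80, while NST1 beyond it responded by −0.09, −0.05 and −0.06 and did not pass.

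Some segments differed in direction or size from the ORF probes beside them. The segment at chromosome XIII 556675 to 556891 rose by 1.61 ± 0.01, 1.77 ± 0.04 and 2.16 ± 0.03, all 6 replicate values lying between 1.60 and 2.18. TIF34, an initiation factor gene that ends before it, fell by 1.18, 1.49 and 1.35, and NDE1, an NADH dehydrogenase gene that begins after it, fell by 0.74, 0.65 and 0.49. The segment at chromosome IV 681670 to 681811 lies between PDS1, the securin gene, and YDR114C, both on the other strand. It rose by 1.93 ± 0.07, 2.54 ± 0.03 and 2.58 ± 0.04, while PDS1 responded by −0.48, 0.47 and 0.07 and YDR114C by −0.20, 0.05 and −0.02.

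Upstream of PCL7, a cyclin gene of the kinase Pho85, the segment at chromosome IX 258362 to 258509 rose by 2.37 ± 0.18, 1.84 ± 0.11 and 2.15 ± 0.04, more than PCL7 (0.50, 0.97 and 1.30). Upstream of ZPS1, a cell surface protein gene, the segment at chromosome XV 33182 to 33335 fell by 2.01, 2.05 and 1.97, more than ZPS1 (−0.47, −0.37 and −0.31). For a tile of the stretch chromosome XVI 108146 to 109146, the assumed 70 bases lay between SSO1 and FAS2. This tile rose by 1.58 ± 0.32, 2.37 ± 0.01 and 2.21 ± 0.02. SSO1, which ends before those bases, was at 0.08, 0.40 and 0.53. Whether these probes meet separate transcripts or other sequences of the genome was not tested.

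Responses that differed between HOG1-GFP and hog1del were found for 33 of the 201 probes, 18 higher and 15 lower in HOG1-GFP (background 15.4%, with 7.75% higher and 7.6% lower), by the limma contrast of strain means. In 13 the difference was at least 2-fold (background 5.30%). Without a test, 15 of the 201 differed at least 2-fold between the strain means, and 25 without replicate 3. Opposite calls in HOG1-GFP and hog1del were made for 5 of the 201 probes and for 101 of all 7132. Of the 33, 21 had an ORF probe for the gene they lie in or for the gene ending before them, 16 differed in the direction of that gene, and for 7 the gene passed too.

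**Figure D4:**
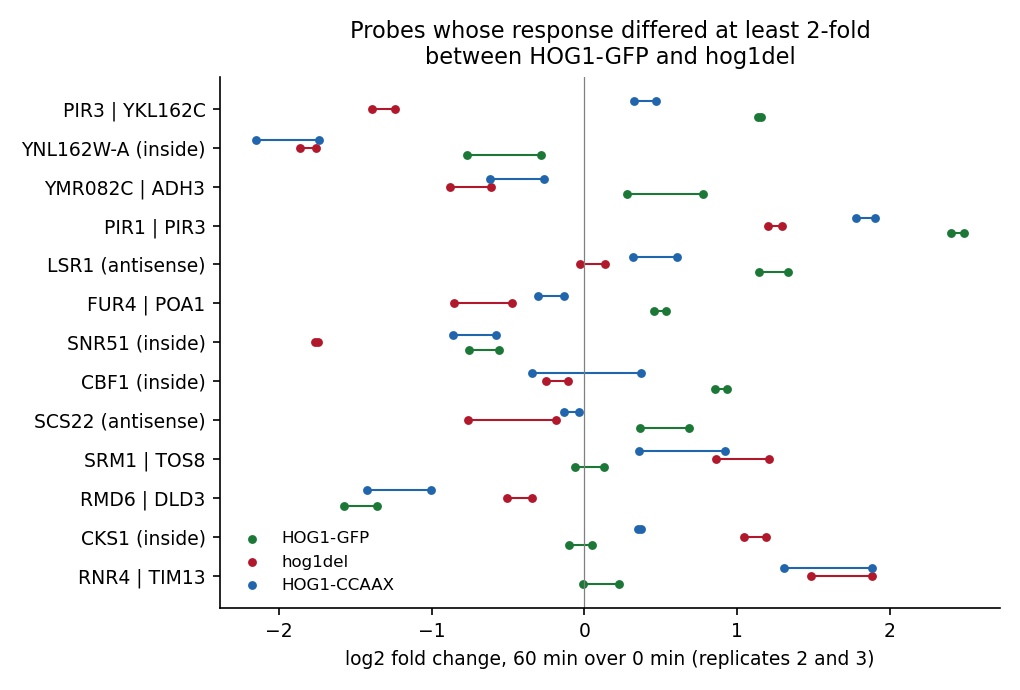
Response (log2, 60 min over 0 min) of the 13 probes that differed at least 2-fold between HOG1-GFP and hog1del, named by the gene they lie in or by the genes on either side. Points are replicates 2 and 3, colours are strains, and a line joins the replicates. HOG1-GFP and hog1del do not overlap in any of the 13, which were chosen for this difference, so this lends it no support of its own.

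The widest difference lay beside cell wall genes on chromosome XI. PIR1 and PIR3 encode cell wall proteins linked to glucan, and a short segment lies past the 3′ end of PIR3 at 145705 to 145879. In HOG1-GFP its level was 0.47 and 0.47 at 0 min and 1.61 and 1.62 at 60 min. In hog1del it was 0.69 and 0.41, then −0.70 and −0.83, and in HOG1-CCAAX 0.79 and 0.50, then 1.12 and 0.97. The strains lay together at 0 min and apart at 60 min, HOG1-GFP highest, HOG1-CCAAX between, and hog1del lowest, with no overlap.

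The segment rose 2.21-fold in HOG1-GFP (1.15 ± 0.01) and 1.32-fold in HOG1-CCAAX (0.40 ± 0.10), and fell by 1.32 ± 0.11 on the log2 scale in hog1del. HOG1-GFP and hog1del differed by 2.46 ± 0.09 (5.51-fold, adjusted p = 0.0006), HOG1-CCAAX and hog1del by 1.71 (adjusted p = 0.015), and HOG1-CCAAX and HOG1-GFP by −0.75 (adjusted p = 0.039), all by limma. It passed in all 3 comparisons of response. The PIR3 ORF probe showed the same order at 0.86, −1.06 and 0.27. Between PIR1 and PIR3, the segment at 142823 to 142991, near an edge, rose in all strains by 2.44 ± 0.06 in HOG1-GFP, 1.25 ± 0.07 in hog1del and 1.84 ± 0.09 in HOG1-CCAAX. There HOG1-GFP exceeded hog1del by 1.20 (adjusted p = 0.004, limma). PIR1 itself was at −0.11, −1.36 and −0.82.

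The probe next to HOG1 also separated the strains. A short segment at chromosome XII 373194 to 373335 lies just past the 3′ end of HOG1 on its strand. At 0 min its level was 0.09 and −0.08 in HOG1-GFP, −1.84 and −2.31 in hog1del, and −3.39 in replicate 2 of HOG1-CCAAX, where replicate 3 has no value. The −3.39 rests on 1 array, and the −2.31 in hog1del is the value of 1 of its arrays, the other reading −1.77. At 60 min it was 2.03 and 1.58 in HOG1-GFP, −0.59 and −0.85 in hog1del, and −3.54 and −3.20 in HOG1-CCAAX. The strains did not overlap at either time, and HOG1-CCAAX was lowest although its HOG1 ORF probe differed from that of HOG1-GFP by −0.16 (adjusted p = 0.64, limma).

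With 11 of 12 values the segment was tested only in the fit that kept incomplete probes. There the level at 0 min differed from that of HOG1-GFP by −2.08 in hog1del (4.23-fold, adjusted p = 0.011) and by −3.55 in HOG1-CCAAX (11.7-fold, adjusted p = 0.005, limma), the latter resting on a single HOG1-CCAAX value. From 0 to 60 min it rose by 1.80 in HOG1-GFP and 1.35 in hog1del (adjusted p = 8.1e-05 and 0.00019, limma), whereas the HOG1 ORF probe, at 0.35 and −0.23, did not pass there. Since hog1del lacks the gene, its −0.23 does not measure a HOG1 transcript. At 0 min that ORF probe differed from HOG1-GFP by −3.26 in hog1del. In HOG1-CCAAX the HOG1 ORF probe rose by 0.57 ± 0.52 (adjusted p = 0.021, limma), while the segment responded by −0.15 in its single replicate. The segment was low in HOG1-CCAAX at both times, and whether a change could be seen at such levels was not tested. The KANMX4 marker probe had levels of 0.55 to 1.01 in HOG1-GFP and −5.90 to −4.78 in the other strains. The GFP tag probe was high in HOG1-GFP (0.21 to 0.74) and HOG1-CCAAX (−0.15 to 0.53) and low in hog1del (−5.39 to −4.67). The part of strain construction in this result was not tested.

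**Figure D5:**
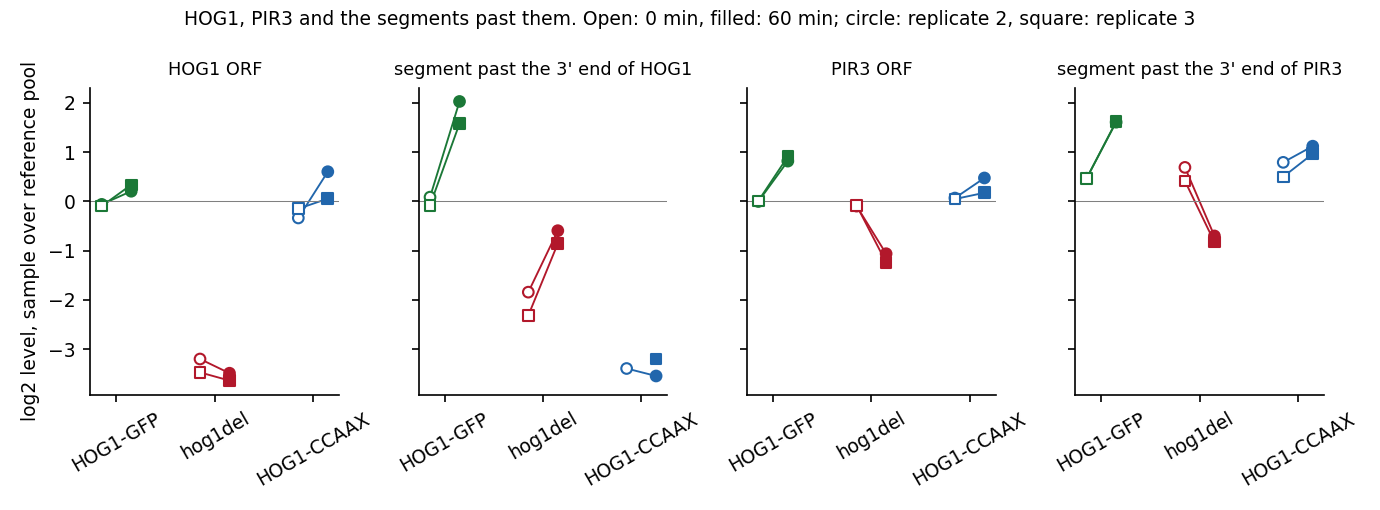
Log2 level of sample over reference for the ORF probes of HOG1 and PIR3 and for the short segments past their 3′ ends. Open symbols are 0 min and filled symbols 60 min, circles are replicate 2 and squares replicate 3, which were normalised in separate tables, and lines join the times of a replicate. Past HOG1 the HOG1-CCAAX values are lowest (−3.54 to −3.20), and past PIR3 the strains part only at 60 min.

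Other differences between HOG1-GFP and hog1del were smaller. Past the 3′ end of FUR4, the uracil permease gene, a segment near an edge at chromosome II 283358 to 283565 responded by 0.54 and 0.45 in HOG1-GFP and by −0.86 and −0.48 in hog1del. The difference was 1.16 (adjusted p = 0.0089, limma), beside 0.82 for the FUR4 ORF probe (adjusted p = 0.026). A single position inside CBF1, a centromere and promoter binding factor, differed by 1.07 (adjusted p = 0.028, limma), beside 0.82 for the gene. The segment in SNR51, near an edge, fell less in HOG1-GFP (0.66) than in hog1del (1.75) and fell by 0.72 in HOG1-CCAAX. HOG1-CCAAX minus HOG1-GFP was −0.06, with a 95% interval half-width of 0.38.

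Lower responses in HOG1-GFP than in hog1del were found in 4 of the 13. The widest was a single position upstream of RNR4, a ribonucleotide reductase subunit, at chromosome VII 856515. It responded by −0.01 and 0.22 in HOG1-GFP, by 1.48 and 1.88 in hog1del, and by 1.89 and 1.31 in HOG1-CCAAX. HOG1-CCAAX lay with hog1del here, and HOG1-GFP did not overlap either. The difference from hog1del was −1.58 (adjusted p = 0.0093, limma), and the RNR4 ORF probe differed by −0.88 (adjusted p = 0.018). A tile of the stretch chromosome II 505260 to 506260 was placed, near an edge, at CKS1, which encodes a subunit of the cell cycle kinase. It rose by 1.12 ± 0.10 in hog1del and responded by −0.03 ± 0.11 in HOG1-GFP. The CKS1 ORF probe responded by 0.75 in hog1del and −0.07 in HOG1-GFP.

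HOG1-CCAAX differed from HOG1-GFP in 5 of the 201 probes (background 4.64%), 3 higher (2.48%) and 2 lower (2.16%), and 2 of the 5 by at least 2-fold (2.19%). Without a test, 3 differed at least 2-fold, against 9 without replicate 2 and 10 without replicate 3. The position upstream of RNR4 was higher by 1.49 in HOG1-CCAAX (adjusted p = 0.027, limma). A segment inside YNL162W-A at chromosome XIV 330325 to 330544 was lower by 1.42 (adjusted p = 0.025). It responded by −0.28 and −0.77 in HOG1-GFP, −1.86 and −1.76 in hog1del, and −2.15 and −1.73 in HOG1-CCAAX. The ORF probe of YNL162W-A, at −0.36, −0.89 and −0.28, placed HOG1-CCAAX with HOG1-GFP instead. A segment between BAP2, a permease of branched-chain amino acids, and TIP1, a cell wall mannoprotein gene, rose by 1.10 and 0.94 in HOG1-GFP, 0.83 and 1.00 in hog1del, and 1.97 and 2.04 in HOG1-CCAAX, a difference of 0.99 (adjusted p = 0.022, limma). BAP2, which ends before it, was at 0.47, 0.23 and 0.90. The 3 higher and 2 lower calls became 2 and 5 when level columns were centred on their medians, and 3 and 6 with quantile normalization. With the replicate number as a block fewer probes were called, as given with the processing below.

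HOG1-CCAAX differed from hog1del in 9 of the 201 probes, 7 higher and 2 lower (background 3.86%, with 1.96% higher and 1.89% lower), and in 7 by at least 2-fold (2.09%). Without a test, 10 differed at least 2-fold, and 23 without replicate 3. Here too fewer probes were called with the replicate number as a block, as given with the processing below. Beside the PIR3 segment, a tile of the stretch chromosome VII 1051413 to 1052413 was placed between PXR1 and YOR1. It was higher in HOG1-CCAAX by 1.55 (adjusted p = 0.025, limma). It responded by 1.20 and 1.20 in HOG1-GFP, 0.24 and 0.83 in hog1del, and 2.26 and 1.91 in HOG1-CCAAX. The position in NOC2 was lower in HOG1-CCAAX by 1.02 (adjusted p = 0.031, limma), and the NOC2 ORF probe by 0.98 (adjusted p = 0.043).

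Before the shock few complete probes differed between strains. The limma fit with the biological replicate as a block called 1 of the 201 lower in hog1del than in HOG1-GFP (background 0.701%) and 1 lower in HOG1-CCAAX than in HOG1-GFP (background 0.421%). Between HOG1-CCAAX and hog1del it called 0 of the 201 (background 0.477%). An unadjusted p under 0.05 was found for 39 of the 201, beside 599 of 5744 ORF probes. With a trended and robust prior limma called 4, and the share of all probes under that prior is not given here. The first of the probes called by the block fit lies between RMD6, a sporulation gene, and DLD3, a lactate dehydrogenase gene, at chromosome V 15652 to 15832. Its level was 0.88 and 0.88 in HOG1-GFP, 0.14 and 0.10 in hog1del, and 0.73 and 0.62 in HOG1-CCAAX, a difference of −0.76 in hog1del (adjusted p = 0.027). The second lies past the 3′ end of MRX1 at chromosome V 314163 to 314310, with 0.95 and 0.61 in HOG1-GFP and 0.15 and −0.45 in HOG1-CCAAX, a difference of −0.93 (adjusted p = 0.03). Without the block, 0 of the 201 were called between HOG1-CCAAX and HOG1-GFP.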

How the data were processed

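Dual-colour arrays compared Cy3-labelled amplified RNA of each sample with a Cy5-labelled reference pool. Total RNA was extracted and amplified with Ambion kits, per the labels' protocols. The deposited level tables hold log2 ratios, which the authors combined over technical arrays of a biological replicate. Scanner files and the normalization were not analysed here. The deposited log2 ratios are reference over sample, so every sign was turned once, a direction borne out by HOG1 in hog1del. The deposited fold changes over time equal the differences of levels to within 5e-07, which also settled 1 misspaced column name as 60 min. The level tables correlated with the means of the authors' values per array at 0.9972 to 0.999. Of the 2884 levels of intergenic probes, 2730 had values on both arrays and 154 on 1; of the 2730, 680 equal the plain mean to within 0.001 and another 79 equal 1 of the arrays. Arrays give no counts, so the number of arrays limits the precision: 2 biological replicates of up to 2 arrays each for the intergenic probes.

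From these values limma 3.58.1 (R 4.3.3) was fitted to the 7132 probes with values in all 12 columns, with lmFit and eBayes, two-sided tests and Benjamini-Hochberg adjustment over all 7132. Responses were fitted on 6 fold changes by strain, and levels at 0 min by strain with the replicate as a block. The script was tested on simulated data. Probes were placed by the coordinates in their identifiers against RefSeq gene models of assembly R64. For tiles an assumed 70 bases were used, beginning at the start plus the number that ends the identifier. The gene models served only for names, lengths and neighbours, since the build behind the identifiers is not given in the sources used here. Genes were named for up to 10 probes in each direction per comparison with an adjusted p under 0.05, at least a 2-fold difference and the same sign in both replicates, with the genes beside them. Probes next to HOG1 or to listed osmostress genes, and those beside mating, ribosome biogenesis and ribosomal protein genes, were also described. Probes of genes holding several tiles, of small RNAs, and those seen at 60 min alone were chosen after their values were seen. Members and lists were chosen with earlier results of these data known. Replicates are biological, per the labels, though what a replicate number shares across strains is not stated. Alternatives changed the replicate block, the scaling, the averaging of technical arrays, the need for complete values, the threshold, the prior of limma and the replicates used.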

Additional observations from a re-analysis of the deposited data

Results flagged for a closer look

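These probes responded differently in different strains, past the limma threshold and by at least 2-fold. Between HOG1-GFP and hog1del the difference, HOG1-GFP minus hog1del on the log2 scale, was 2.46 past the 3′ end of PIR3 and 1.20 between PIR1 and PIR3 (near an edge). It was 1.28 inside YNL162W-A, 1.27 between YMR082C and ADH3 (a mitochondrial alcohol dehydrogenase gene), 1.18 opposite LSR1, 1.16 past FUR4 and 1.09 in SNR51 (all 3 near an edge), 1.07 inside CBF1 and 1.00 at chromosome II 46928 to 47189 opposite SCS22. It was −1.58 upstream of RNR4, −1.14 at CKS1 (near an edge), −1.04 between RMD6 and DLD3, and −1.01 between SRM1 and TOS8. Between RMD6 and DLD3 the level in hog1del already differed from HOG1-GFP by −0.76 at 0 min (adjusted p = 0.027, limma).

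HOG1-CCAAX minus HOG1-GFP was 1.49 upstream of RNR4 and −1.42 inside YNL162W-A. HOG1-CCAAX minus hog1del was 1.71 past PIR3, 1.55 upstream of YOR1, 1.20 between VHR2 and ICL1 (the isocitrate lyase gene), 1.10 inside YKL091C, 1.09 past BAP2, 1.03 in SNR51 (near an edge) and −1.02 inside NOC2.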

How the results depend on the processing

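For single probes, 82 values were tested again under 6 settings. These had been chosen for passing the threshold, by at least 2-fold and with the same sign in both replicates. Of the 492 outcomes 480 kept their direction and their side of the threshold, and 12 fell short of it: 9 with a replicate block, 2 with quantile normalization and 1 with an own mean of technical arrays. Leaving out a replicate gave 164 values with no test, all in the same direction, which that choice had fixed beforehand. Requiring at least a 2-fold change as well left 47 responses called in HOG1-GFP, 71 in hog1del and 70 in HOG1-CCAAX. It left 13 differences of HOG1-GFP from hog1del, 2 of HOG1-CCAAX from HOG1-GFP, and 0 at 0 min for hog1del and for HOG1-CCAAX against HOG1-GFP. With quantile normalization HOG1-CCAAX differed from HOG1-GFP in 9 probes. With the replicate number as a block in the fit of responses, 20 differences of HOG1-GFP from hog1del were called, 0 of HOG1-CCAAX from HOG1-GFP and 1 of HOG1-CCAAX from hog1del. Replicates share only a number: the deviations of hog1del correlated at 0.03 with those of HOG1-GFP and at 0.02 with those of HOG1-CCAAX, and those of the tagged strains at −0.26, and with 2 pairs no pairing was assumed.

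At 0 min the calls between hog1del and HOG1-GFP were 2 with no replicate block, 3 with quantile normalization, 2 with incomplete probes kept and 3 with a trended and robust prior. Between HOG1-CCAAX and HOG1-GFP they were 0 with no replicate block, 2 with incomplete probes kept and 2 with a trended and robust prior. Between HOG1-CCAAX and hog1del they were 1 with incomplete probes and 4 with the trended and robust prior. The cause of these changes was not tested.

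Leaving out a replicate leaves no residual degrees of freedom, so it gives values without a test. Probes past 2-fold then numbered 46 to 50 in HOG1-GFP, 72 in hog1del and 74 to 76 in HOG1-CCAAX. Differences past 2-fold numbered 11 to 25 for HOG1-GFP against hog1del (15 with both), 9 to 10 for HOG1-CCAAX against HOG1-GFP (3 with both) and 8 to 23 for HOG1-CCAAX against hog1del (10 with both). At 0 min they numbered 0 to 1 for hog1del and 1 for HOG1-CCAAX against HOG1-GFP. The correlation of tiles with their gene ran from 0.84 to 0.89 in HOG1-GFP, 0.81 to 0.89 in hog1del and at 0.84 in HOG1-CCAAX, and that of single positions from 0.92 to 0.97 in HOG1-CCAAX. Keeping segments near an edge, an alternative added after the data were seen, gave 0.66, 0.60 and 0.60 for short segments and the gene ending before them. Testing incomplete probes for the segment next to HOG1 was added in the same way. A comparison with only the gene named in the identifier was not run, since the identifiers name no gene.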
